A study of Mus musculus with 19 samples.

Results

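The genes described here drive and carry out the cell division cycle. They are 46 genes chosen by symbol, 24 that act around the entry into and passage through DNA synthesis (G1/S) and 22 that act in the second gap phase and mitosis (G2/M), among 56941 genes in the deposited tables. Each of the 46 symbols matched 1 row, all 46 passed the filter on low counts that 20501 genes passed, and no library listed any of them at 0. RNA came from the pelleted cells of bronchoalveolar lavage, which the labels call alveolar macrophages, phagocytes that live in the airspace. The mice were females of 7 to 8 weeks, wild type animals of C57Bl/6J and animals named ICAM-1 null. ICAM-1 is an adhesion molecule of the cell surface, and the null allele is carried by the whole animal. Mice were lavaged naive, or 1 h after 100 µL of suspension (Staphylococcus aureus pHrodo bioparticles, 2.27 mg/mL in PBS) was given by oropharyngeal aspiration under isoflurane. There are 4 naive and 5 exposed libraries of wild type mice, and 5 naive and 5 exposed libraries of ICAM-1 null mice, 19 in all. The labels do not mention a vehicle given to naive mice.

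Cells enter the cycle when D cyclins with CDK4 or CDK6, and then E cyclins with CDK2, inactivate the retinoblastoma protein and free E2F transcription factors. E2F target genes license the replication origins and supply nucleotides and fork proteins, while p21 and p27 hold the cyclin-dependent kinases back. Later, CDK1 with cyclins A and B, the Aurora and Polo-like kinases, the spindle checkpoint and the anaphase-promoting complex carry the cell through mitosis. Alveolar macrophages are a long-lived population that can maintain itself by local division, and cells in division are usually few among them. In a bulk library, a change in how many cells divide and a change in the RNA of each dividing cell cannot be told apart.

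Total estimated counts per library ran from 32.8 to 80.3 M, above the 20 M read pairs that the labels plan, so 1 estimated count is not shown to be 1 read pair. The shallowest 3 libraries, 32.8 to 41.0 M, are all wild type naive. Icam1, the targeted gene, was at 63.8 to 85.9 TPM (a share of the library's transcripts, scaled by transcript length) in wild type naive and 722 to 1079 in wild type exposed libraries, against 4.88 to 11.5 in ICAM-1 null naive and 9.48 to 13.2 in ICAM-1 null exposed libraries, with no overlap between genotypes. The summed level of 12 alveolar macrophage markers ranged from 23903 to 27618 TPM, 27636 to 31118, 26916 to 32454 and 29194 to 34217 in the order wild type naive, null naive, wild type exposed, null exposed. The markers did not move alike: Chil3 averaged 15188, 16821, 14622 and 14476 TPM and Ear2 4572, 4975, 2643 and 3169 TPM in that order, but Plet1 1203, 1642, 4695 and 7436, Fabp4 203, 277, 1003 and 1189, Marco 478, 1844, 589 and 1963 and Car4 975.1, 436, 2792 and 1724 TPM. Of the 12, 9 were called higher and 2 lower on exposure in wild type mice, and 5 and 2 in null mice, by the test described below. Of all genes, 20.1% were called higher and 20.2% lower in wild type mice, and 21.4% and 23.4% in null mice. Markers of other cells were not even between the groups. The summed level of 17 airway and alveolar epithelial markers ranged from 1212 to 1543 TPM, 1141 to 1262, 1822 to 3907 and 1199 to 1793 in the same order, and that of 8 erythroid and platelet markers from 138 to 413, 100.5 to 355, 372 to 2401 and 133 to 353. The 12 neutrophil markers summed to 66.9 to 94.1, 170.0 to 185, 86.0 to 117 and 125 to 189 TPM. Of these, Elane was at 0 in all 19 libraries and Ly6g reached at most 0.646 TPM, and Csf3r and S100a8 made up most of the difference between genotypes. Summed dendritic cell markers ranged from 11.0 to 22.7, 11.4 to 22.9, 41.0 to 72.9 and 26.8 to 46.3 TPM, monocyte and interstitial macrophage markers from 42.1 to 69.3, 44.6 to 64.9, 64.8 to 81.1 and 43.4 to 69.3, and endothelial and stromal markers from 40.5 to 50.1, 51.4 to 58.1, 43.7 to 56.9 and 42.9 to 57.8. Summed T and NK cell markers ranged from 208 to 265, 162 to 219, 244 to 306 and 180 to 228 TPM in the same order, so the exposed genotypes did not overlap. Summed B cell markers lay between 0.493 and 5.38 TPM.

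Differences below are log2 fold changes with their standard errors from edgeR's quasi-likelihood test on the estimated counts, with library sizes scaled by the trimmed mean of M values (TMM). A gene is called when its Benjamini-Hochberg adjusted p over the 20501 genes tested is under 0.05. TPM values are levels per transcript length, so they can be compared between genes. The TPM and TMM scales differ in the 2 exposure comparisons: the median of all genes tested was 0.02 on the TMM scale in either genotype, but -0.22 in wild type and -0.19 in ICAM-1 null mice on log2(TPM + 1). A gene can therefore be higher after exposure on one scale and lower on the other. The genotype comparisons within naive or within exposed mice share no such shift, with medians of -0.03 and -0.02 on log2(TPM + 1). The exposure comparison of each genotype shares its naive libraries with the naive genotype comparison, and its exposed libraries with the exposed one.

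The G2/M genes were higher in ICAM-1 null than in wild type lavage cells before any exposure. Of the 22 genes, 15 were called higher and none lower, and the log2 fold changes of all 22 were positive, from 0.10 to 0.92 with a median of 0.50 against 0.01 for all genes tested. Over all genes, 6.86% were called in this comparison, 4.31% higher and 2.55% lower. The called genes were spread over the machinery of mitosis: 4 of the 6 genes of the group of Mki67, topoisomerase, CDK1 and its cyclins, 1 of the 4 mitotic kinases and passenger proteins, 3 of the 4 checkpoint and anaphase-promoting genes and 7 of the 8 kinetochore and spindle genes were called. The summed level of the 22 genes was 375 ± 35.1 TPM (SD, n = 4) in naive wild type and 500.3 ± 70.8 TPM (SD, n = 5) in naive ICAM-1 null libraries, and the ranges of 327 to 409 and 439 to 613 did not overlap. After exposure the sums were 360.3 ± 26.8 TPM (SD, n = 5) and 357 ± 28.5 TPM (SD, n = 5).

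**Figure D1:**
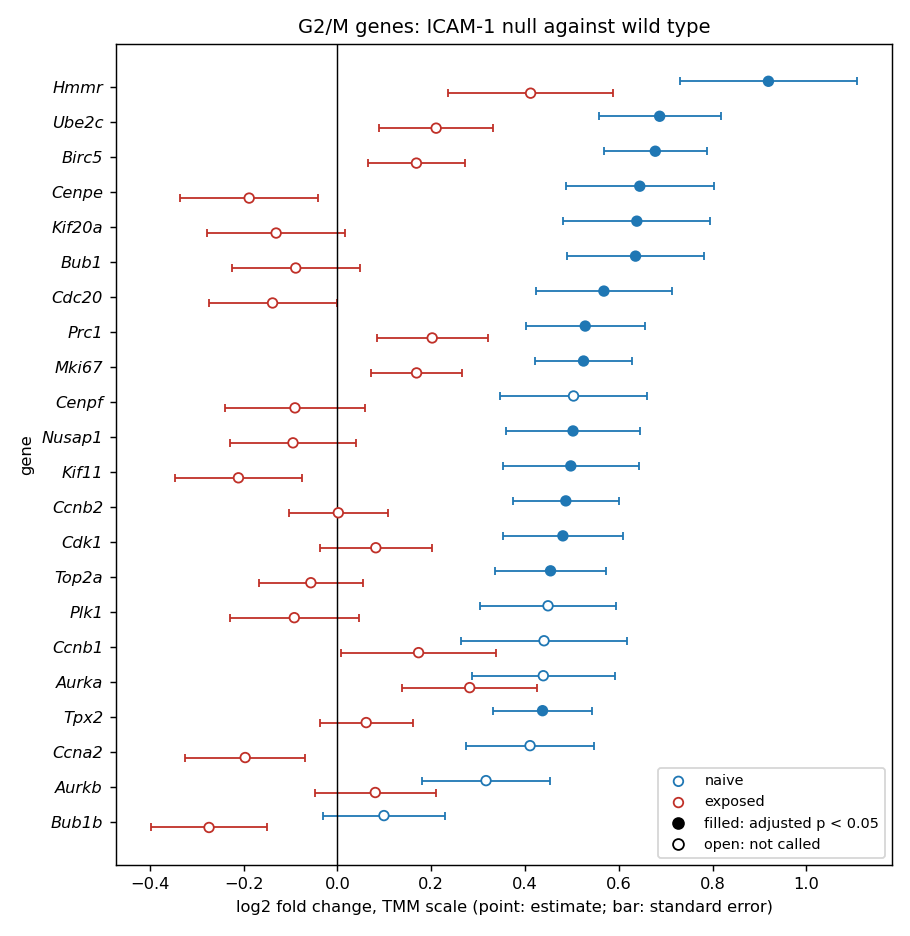
Log2 fold change of each G2/M gene, ICAM-1 null against wild type, on the TMM scale (horizontal axis) for naive mice (blue) and exposed mice (red), with standard errors as bars and filled points for adjusted p under 0.05. All 22 naive points lie above 0 and 15 are filled, while the exposed points lie on both sides of 0 and none is filled.

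Mki67 encodes the Ki-67 protein that coats mitotic chromosomes and is the usual marker of cycling cells (GRCm39 chromosome 7, 135291513 to 135318090). Mki67 levels were 25.4, 20.9, 29.7 and 27.8 TPM in naive wild type mice and 38.2, 37.0, 37.4, 32.9 and 33.4 TPM in naive ICAM-1 null mice, and after exposure 34.4, 35.7, 36.3, 35.5 and 27.9 TPM in wild type and 40.4, 42.0, 29.4, 36.7 and 37.1 TPM in ICAM-1 null mice. Every naive null library stood above every naive wild type library, and the fold change was 0.52 ± 0.10 (adjusted p = 0.00209). Birc5 encodes survivin, which guides Aurora B as part of the chromosomal passenger complex (chromosome 11, 117740077 to 117746569). For Birc5 the wild type naive libraries gave 26.1, 23.6, 30.7 and 25.8 TPM and the wild type exposed libraries 27.7, 28.3, 27.6, 25.7 and 21.0 TPM, while the ICAM-1 null libraries gave 52.5, 38.4, 36.3, 36.9 and 40.4 TPM naive and 26.2, 26.4, 30.4, 32.5 and 25.0 TPM exposed. The lowest naive null library was again above the highest naive wild type library, with a fold change of 0.68 ± 0.11 (adjusted p = 0.000257), the smallest adjusted p of the 22 genes. Library 1 of the null naive group was the highest at 52.5 TPM, and the other 4 lay between 36.3 and 40.4 TPM.

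Ube2c encodes the ubiquitin-conjugating enzyme that serves the anaphase-promoting complex (chromosome 2, 164611818 to 164620742). Ube2c was measured at 39.6, 26.9, 44.3 and 38.9 TPM in the wild type naive libraries, 67.1, 61.3, 48.3, 54.1 and 59.2 in the ICAM-1 null naive libraries, 41.5, 41.9, 32.2, 41.9 and 36.2 in the wild type exposed libraries and 48.5, 40.0, 44.1, 45.7 and 41.0 in the ICAM-1 null exposed libraries. The naive groups did not overlap, and the fold change was 0.69 ± 0.13 (adjusted p = 0.00136). Hmmr encodes a spindle-associated hyaluronan receptor (chromosome 11, 40592222 to 40624249). Hmmr levels were 2.89, 1.95, 3.34 and 3.11 TPM in naive wild type mice and 6.41, 5.92, 4.60, 4.68 and 3.75 TPM in naive ICAM-1 null mice, and after exposure 3.05, 2.71, 3.77, 3.20 and 1.93 TPM in wild type and 4.69, 3.59, 3.43, 3.79 and 3.45 TPM in ICAM-1 null mice. It had the largest fold change of the 22 genes, 0.92 ± 0.19 (adjusted p = 0.00292), at a level of 5.07 ± 1.07 TPM (SD, n = 5) against 2.82 ± 0.608 TPM (SD, n = 4). Bub1, a kinase of the spindle checkpoint (chromosome 2, 127643036 to 127673785), differed by 0.64 ± 0.15 (adjusted p = 0.00757). For Bub1 the wild type naive libraries gave 6.37, 5.66, 7.15 and 5.84 TPM and the wild type exposed libraries 6.10, 5.66, 7.08, 8.12 and 5.77 TPM, while the ICAM-1 null libraries gave 9.05, 10.5, 8.13, 9.24 and 9.33 TPM naive and 6.92, 4.07, 6.16, 6.25 and 6.79 TPM exposed. All 5 naive null libraries lay above all 4 naive wild type libraries. Ccnb2 encodes cyclin B2, a partner of CDK1 (chromosome 9, 70314974 to 70328829). Ccnb2 was measured at 29.4, 23.0, 32.3 and 29.8 TPM in the wild type naive libraries, 45.4, 38.3, 35.3, 31.2 and 42.8 in the ICAM-1 null naive libraries, 26.5, 31.1, 29.0, 26.8 and 26.5 in the wild type exposed libraries and 28.5, 26.4, 28.5, 30.7 and 22.4 in the ICAM-1 null exposed libraries. Its naive groups overlapped, because 1 null library, at 31.2 TPM, lay under the highest wild type library, at 32.3 TPM, and its fold change was 0.49 ± 0.11 (adjusted p = 0.00778).

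**Figure D2:**
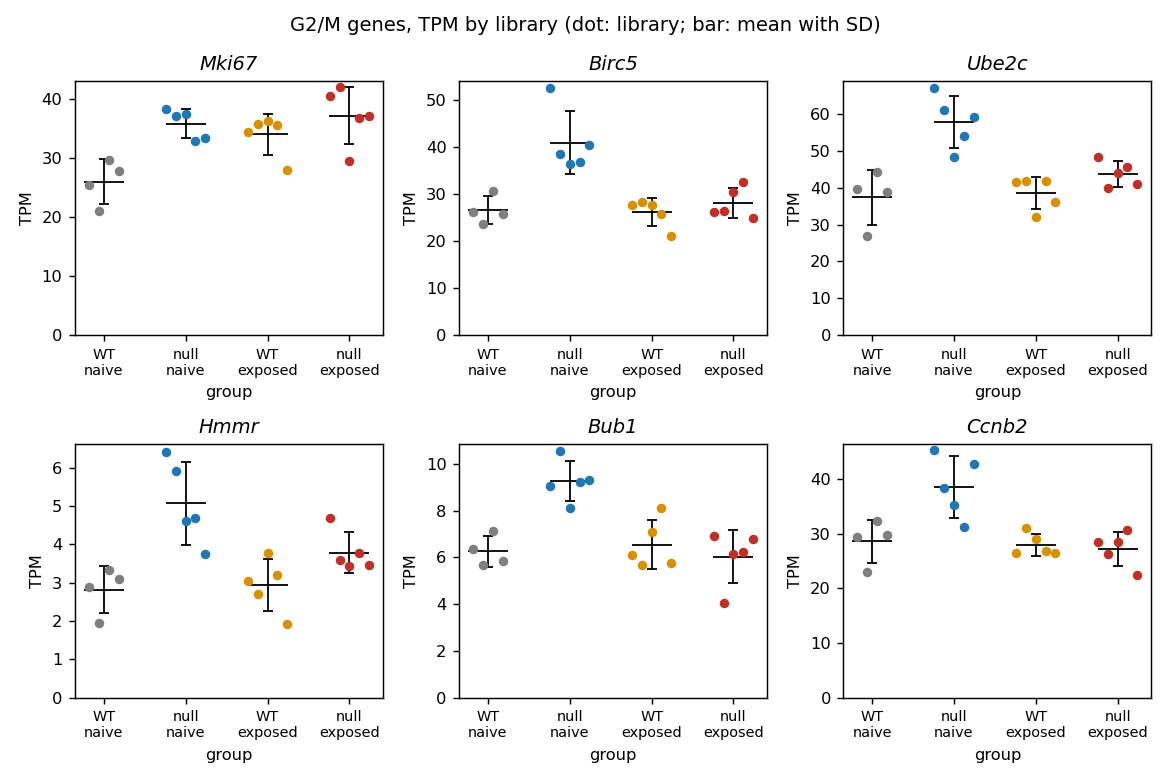
TPM (vertical axis, from 0) of 6 G2/M genes in each of the 19 libraries by group, with 1 dot per library and bars for the mean and SD. In Mki67, Birc5, Ube2c, Hmmr and Bub1 every naive null library lies above every naive wild type library, in Ccnb2 they overlap, and the exposed groups overlap in all 6 genes.

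The other 9 called genes of the naive comparison had fold changes of 0.44 (Tpx2) to 0.64 (Cenpe), and the naive groups did not overlap for Cenpe and Prc1. Top2a, the topoisomerase that untangles sister chromosomes, was the most abundant gene of its group. Top2a levels were 43.4, 39.0, 55.3 and 53.01 TPM in naive wild type mice and 79.3, 60.8, 55.1, 53.9 and 57.9 TPM in naive ICAM-1 null mice, and after exposure 48.9, 48.8, 54.2, 54.5 and 54.0 TPM in wild type and 55.6, 44.6, 45.1, 51.7 and 49.5 TPM in ICAM-1 null mice. Its naive fold change was 0.45 ± 0.12 (adjusted p = 0.0194). Cdk1, the kinase that drives mitotic entry, differed by 0.48 ± 0.13 (adjusted p = 0.0213). For Cdk1 the wild type naive libraries gave 10.4, 9.88, 14.0 and 10.2 TPM and the wild type exposed libraries 11.2, 12.1, 11.7, 12.2 and 11.0 TPM, while the ICAM-1 null libraries gave 17.5, 14.6, 15.2, 12.0 and 13.9 TPM naive and 12.4, 11.6, 12.1, 13.0 and 11.6 TPM exposed. Wild type library 3, at 14.0 TPM, lay within the null range of 12.0 to 17.5 TPM. Tpx2, which activates Aurora A and nucleates spindle microtubules, was the most abundant kinetochore and spindle gene. Tpx2 was measured at 19.1, 15.5, 17.2 and 16.3 TPM in the wild type naive libraries, 23.9, 23.6, 18.1, 19.9 and 20.2 in the ICAM-1 null naive libraries, 13.6, 16.8, 17.1, 16.4 and 13.0 in the wild type exposed libraries and 17.7, 11.8, 15.1, 16.9 and 15.5 in the ICAM-1 null exposed libraries. It differed by 0.44 ± 0.11 (adjusted p = 0.0114), and its naive groups overlapped.

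Prc1 bundles the microtubules of the central spindle, and differed by 0.53 ± 0.13 (adjusted p = 0.0107). Prc1 levels were 12.4, 13.8, 11.6 and 13.4 TPM in naive wild type mice and 21.6, 18.8, 14.0, 17.2 and 16.2 TPM in naive ICAM-1 null mice, and after exposure 12.1, 12.7, 15.2, 14.3 and 12.8 TPM in wild type and 18.2, 13.2, 14.8, 14.8 and 11.4 TPM in ICAM-1 null mice. All naive null libraries were above all naive wild type libraries. Nusap1, a microtubule-binding protein of the spindle, differed by 0.50 ± 0.14 (adjusted p = 0.0348). For Nusap1 the wild type naive libraries gave 10.3, 11.0, 13.0 and 11.4 TPM and the wild type exposed libraries 13.2, 10.6, 12.6, 11.9 and 12.5 TPM, while the ICAM-1 null libraries gave 21.3, 16.0, 12.5, 12.7 and 15.7 TPM naive and 12.7, 9.99, 11.1, 13.2 and 9.47 TPM exposed. Kif11 is the kinesin that pushes the spindle poles apart, and differed by 0.50 ± 0.14 (adjusted p = 0.039). Kif11 was measured at 7.09, 7.49, 9.44 and 9.40 TPM in the wild type naive libraries, 15, 12.1, 8.95, 10.7 and 9.92 in the ICAM-1 null naive libraries, 7.53, 7.25, 9.85, 7.36 and 5.87 in the wild type exposed libraries and 7.44, 5.04, 6.48, 6.81 and 5.95 in the ICAM-1 null exposed libraries. Null libraries 3 and 4 lay inside the wild type range for Nusap1, and null library 3 for Kif11. Kif20a, a kinesin of cytokinesis, differed by 0.64 ± 0.16 (adjusted p = 0.0125). Kif20a levels were 5.97, 7.11, 8.80 and 8.71 TPM in naive wild type mice and 17.0, 9.79, 8.78, 9.62 and 12.1 TPM in naive ICAM-1 null mice, and after exposure 5.25, 5.93, 7.01, 6.82 and 4.18 TPM in wild type and 5.38, 4.65, 5.27, 4.90 and 4.85 TPM in ICAM-1 null mice. Null library 1, at 17.0 TPM, was well above the other 4, which reached 12.1 TPM. The remaining called genes were Cenpe, a kinetochore motor, at 0.64 ± 0.16 (adjusted p = 0.0124), and Cdc20, which activates the anaphase-promoting complex, at 0.57 ± 0.15 (adjusted p = 0.0173).

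The 7 genes that were not called had fold changes of 0.10 (Bub1b) to 0.50 (Cenpf). Plk1, the Polo-like kinase, was among them at 0.45 ± 0.15 (adjusted p = 0.0724). For Plk1 the wild type naive libraries gave 12.0, 12.7, 14.5 and 13.8 TPM and the wild type exposed libraries 5.55, 9.34, 10.6, 9.12 and 7.57 TPM, while the ICAM-1 null libraries gave 21.5, 19.5, 16.0, 14.7 and 15.02 TPM naive and 8.16, 6.19, 8.74, 7.90 and 7.26 TPM exposed. The naive groups did not overlap for Plk1. Cenpf, a kinetochore protein, was at 0.50 ± 0.16 (adjusted p = 0.0595). Cenpf was measured at 2.70, 2.58, 2.55 and 3.43 TPM in the wild type naive libraries, 4.38, 3.88, 3.52, 3.95 and 3.40 in the ICAM-1 null naive libraries, 1.56, 2.73, 2.47, 1.81 and 1.37 in the wild type exposed libraries and 2.06, 1.64, 2.08, 2.06 and 1.40 in the ICAM-1 null exposed libraries. Wild type library 4, at 3.43 TPM, lay just inside the null range, which began at 3.40 TPM. Ccna2, Ccnb1, Aurka and Aurkb, the cyclins A2 and B1 and the Aurora kinases, had fold changes of 0.41, 0.44, 0.44 and 0.32. In TPM, 8 of the 22 genes had naive groups that did not overlap, all with the null group higher, where 4.48% of all genes tested did.

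The number of calls depended on single libraries. ICAM-1 null naive library 1 had the highest level of its group in 20 of the 22 genes, and wild type naive library 2 had the lowest of its group in 13. The number called fell from 15 to 8 without wild type naive library 2, to 9 without wild type naive library 1 and to 10 without ICAM-1 null naive library 1. Over all genes, 883 were called higher and 523 lower with every library. In these fits, in the same order, 726 and 410, 688 and 384, and 782 and 478 were. All 22 stayed positive, with medians of 0.45, 0.49 and 0.41. Against wild type naive library 4 alone, the deepest of its group, all 22 were positive and the median was 0.42, against 0.01 for all genes. This alternative was chosen after seeing the data. A group of 1 library has no spread of its own, so this fit does not show whether the calls hold. On log2(TPM + 1) with limma, 8 were called and 21 of 22 were positive, with a median of 0.39. Of all 20501 genes, 680 were called higher and 785 lower in that fit. Summed neutrophil markers were also higher in naive null libraries (175 ± 5.79 TPM, SD, n = 5, against 80.5 ± 11.1, n = 4). By edgeR, 3 of 8 tested neutrophil markers were called higher, where 4.31% of all genes were. The part of these markers in the G2/M difference was not tested.

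In exposed mice none of the 22 G2/M genes was called between the genotypes by edgeR, where 8.48% of all genes were (4.43% higher, 4.04% lower); 2 had an unadjusted p under 0.05, and DESeq2 called none. The fold changes split 11 and 11 by sign around a median of -0.03, and no gene had groups that did not overlap in TPM. The largest positive was Hmmr at 0.41 ± 0.18 (adjusted p = 0.181) and the largest negative Bub1b, a checkpoint kinase-like protein, at -0.27 ± 0.12 (adjusted p = 0.214). Mki67 stood at 34.0 ± 3.45 TPM (SD, n = 5) and 37.1 ± 4.84 TPM (SD, n = 5), and Birc5 at 26.1 ± 2.99 TPM (SD, n = 5) and 28.1 ± 3.20 TPM (SD, n = 5).

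The difference of responses to exposure, the null response minus the wild type response, was negative for all 22 G2/M genes. Its median was -0.51 against -0.03 for all genes. No G2/M gene was called by edgeR, where 0.332% of all genes were (0.18% higher, 0.151% lower). The smallest adjusted p was 0.121, for Cenpe at -0.83, followed by Bub1 at -0.72 ± 0.20 (adjusted p = 0.155), Kif11 at -0.71 ± 0.20 (adjusted p = 0.161), Kif20a at -0.77 ± 0.21 (adjusted p = 0.161) and Cdc20 at -0.71 ± 0.20 (adjusted p = 0.165). An unadjusted p under 0.05 was found for 16 of the 22, against 9.85% of all genes. DESeq2 called 5 of the 22, all lower, where it called 108 higher and 158 lower of 18890 genes. All 22 were negative on log2(TPM + 1) too, with a median of -0.45. The 4 groups entering this difference include the naive libraries described above, so it is not separate evidence from the naive comparison.

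Exposure was compared with the naive state within each genotype. On the TMM scale, in wild type mice 9 of 22 were called higher and none lower, where 40.2% of all genes were called (20.1% higher, 20.2% lower). In ICAM-1 null mice 1 was called higher and 8 lower, where 44.8% were called (21.4% higher, 23.4% lower). The medians were 0.37 and -0.21. These directions depend on the scale in wild type mice: on log2(TPM + 1), 1 of the 22 was called higher and 5 lower, with a median of -0.01 against -0.22 for all genes. In ICAM-1 null mice the TPM scale gave 18 lower and none higher, with a median of -0.50 against -0.19 for all genes. On log2(TPM + 0.1) the null median was -0.52 against -0.31 for all genes. Of all 20501 genes, 2251 were called higher and 8402 lower on log2(TPM + 1) in wild type mice, and 2236 and 8414 in null mice. In TPM, 3 of the 22 genes were lower in every exposed than in every naive wild type library and 14 in the null libraries, where 32% and 32.7% of all genes were. In wild type mice 13 of 17 epithelial and 5 of 7 tested erythroid and platelet markers were called higher on exposure too, and 11 of 17 and 0 of 7 in null mice. The same counts were 5 and 6 of 8 for dendritic cell markers, 7 and 3 of 10 for monocyte and interstitial macrophage markers, 6 and 3 of 11 tested T and NK cell markers and 6 and 1 of 10 for endothelial and stromal markers, in wild type and null mice. Their part in these values was not tested.

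Mki67 was the only G2/M gene called higher in both genotypes, at 0.76 ± 0.10 (adjusted p = 5.1e-06) in wild type and 0.40 ± 0.10 (adjusted p = 0.00175) in null mice on the TMM scale. On log2(TPM + 1) the same differences were 0.38 and 0.04. Top2a was at 0.64 ± 0.12 (adjusted p = 0.000165) in wild type and 0.13 ± 0.11 (adjusted p = 0.357) in null mice, and on the TPM scale at 0.14 and -0.30, so its sign in null mice turned. The other 7 called in wild type mice on the TMM scale were Cdk1 (0.49), Prc1 (0.48), Nusap1 (0.48), Bub1 (0.48), Ccna2 (0.44), Ube2c (0.43) and Ccnb2 (0.34). None of these 7 was called on the TPM scale, where Ccnb2 was at -0.02 and the other 6 between 0.05 and 0.09.

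The 8 genes lower in exposed null mice were lower and called on both scales. Because the median of all genes lies lower on the TPM scale, that scale is not separate evidence for them. Plk1 had the smallest adjusted p, at -0.83 ± 0.14 (adjusted p = 3.83e-05), and its exposed null libraries (6.19 to 8.74 TPM) lay under the naive ones (14.7 to 21.5 TPM). Kif20a was at -0.85 ± 0.15 (adjusted p = 6.06e-05), Cenpf at -0.73 ± 0.15 (adjusted p = 0.000344) and Birc5 at -0.44 ± 0.10 (adjusted p = 0.00128). Kif11 (-0.48), Bub1b (-0.41), Cenpe (-0.44) and Cdc20 (-0.36) completed the list. In each of the 8 the exposed null libraries were all below the naive null libraries. In wild type mice the same 8 genes had TMM fold changes of -0.29 (Plk1) to 0.39 (Cenpe), with none called. All 8 were negative there on log2(TPM + 1), and Plk1 (-0.62), Bub1b (-0.49) and Cenpf (-0.37) were called lower, as were Aurka and Aurkb.

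**Figure D3:**
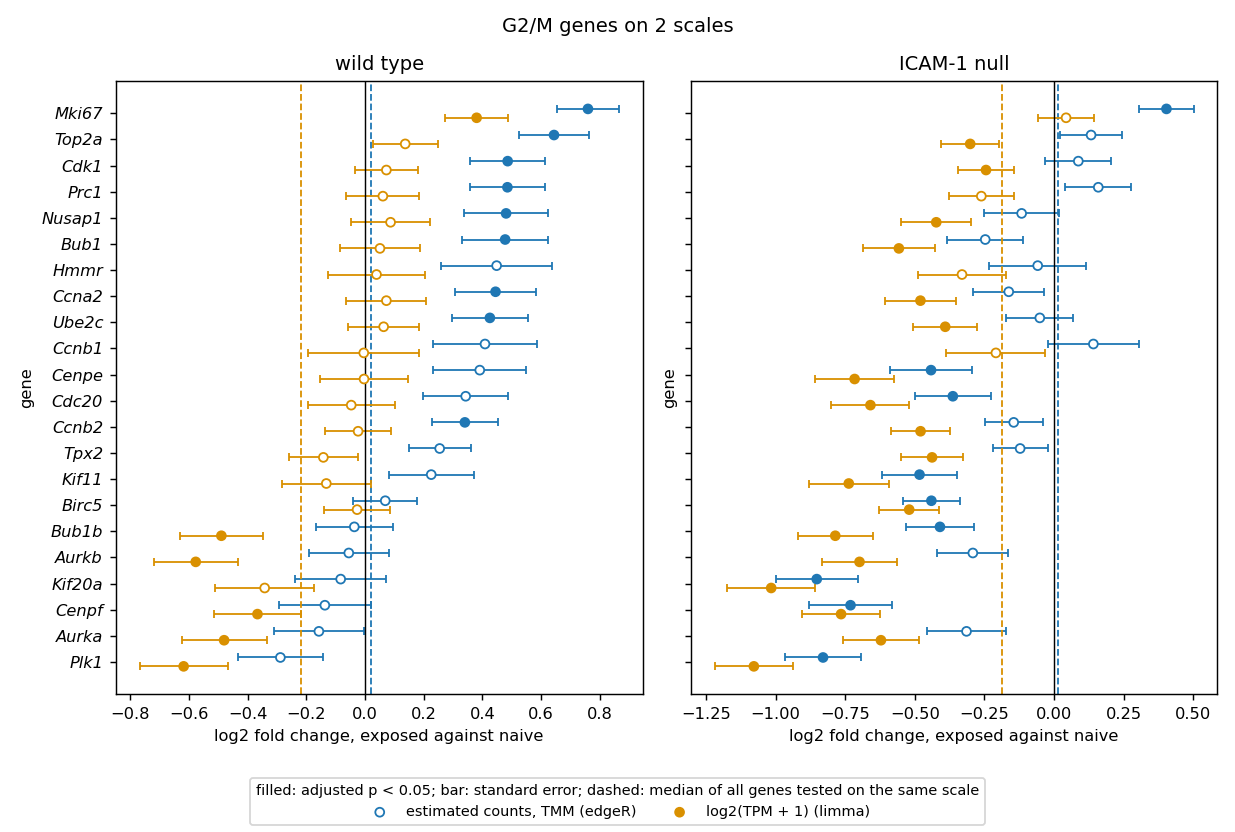
Log2 fold change of each G2/M gene, exposed against naive, in wild type (left) and ICAM-1 null mice (right), from estimated counts with TMM scaling (blue) and from log2(TPM + 1) (orange), with standard errors as bars, filled points for adjusted p under 0.05 and dashed lines for the median of all genes. Each orange point lies to the left of its blue one, and 9 blue but 1 orange points are filled above 0 in wild type mice.

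Promoter windows are shown because the G2/M genes moved together in the naive comparison. The windows are RefSeq's, build GRCm38.p6, from 250 bases before to 50 after each annotated start, and 38 of the 46 genes matched by symbol, 20 G1/S and 18 G2/M, with 42 windows. The genes without one are Ccnd1, Ccnd2, Ccne2, Mcm4, Ccna2, Aurkb, Kif20a and Tpx2. Both strands were searched for TTTGAA, the core of the cell cycle genes homology region (CHR) bound by the DREAM and MuvB complexes, for CCAAT, the box bound by NF-Y, and for 3 E2F-type words, TTTCCCGC, TTTGGCGC and TTTCGCGC, which may overlap one another. TTTGAA was found in 14 of the 19 G2/M windows (73.7%), in 1 of the 23 G1/S windows (4.35%) and in 17.9% of all 32851 windows. CCAAT was found in 17 (89.5%), 12 (52.2%) and 37.4%, and both words together in 14, 1 and 6.95%. An E2F-type word was found in 1 G2/M window (5.26%), in 7 G1/S windows (30.4%) and in 1.84% of all windows. These are matches of letters, not measured binding. The counts cover every member with a window, called or not, and any bearing on the naive difference was not tested.

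The 250 bases before the start are printed 5′ to 3′ for 4 G2/M genes with small adjusted p in the naive comparison, with TTTGAA and CCAAT on either strand in capitals (TTCAAA and ATTGG on the other strand). They are Mki67 at chr7:135716380-135716629 (minus strand), Hmmr at chr11:40733438-40733687 (minus strand), Ccnb2 at chr9:70421555-70421804 (minus strand) and Ube2c at chr2:164769679-164769928 (plus strand). The stretches of 2 G1/S genes that were lower in exposed null mice follow for contrast, with the E2F-type words and CCAAT in capitals: Mcm6 at chr1:128359706-128359955 (minus strand) and Cdk2 at chr10:128705052-128705301 (minus strand). These 6 genes were chosen after their values and word matches were seen, and Mcm6 and Cdk2 because they hold an E2F-type word. Birc5, the G2/M gene with the smallest adjusted p in the naive comparison, has a window with none of these words. Bub1, with a smaller adjusted p than Ccnb2, has CCAAT but no TTTGAA in its window. Neither is printed.
Mki67: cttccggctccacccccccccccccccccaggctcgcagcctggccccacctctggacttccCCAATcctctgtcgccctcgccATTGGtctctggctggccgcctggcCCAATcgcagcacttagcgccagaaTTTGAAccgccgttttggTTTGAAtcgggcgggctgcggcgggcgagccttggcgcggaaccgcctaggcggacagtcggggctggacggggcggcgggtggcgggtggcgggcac
Hmmr: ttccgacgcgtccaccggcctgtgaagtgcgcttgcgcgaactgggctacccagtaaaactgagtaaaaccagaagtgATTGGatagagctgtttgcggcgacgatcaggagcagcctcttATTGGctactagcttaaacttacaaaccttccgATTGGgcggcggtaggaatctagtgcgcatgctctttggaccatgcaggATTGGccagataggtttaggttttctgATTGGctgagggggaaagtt
Ccnb2: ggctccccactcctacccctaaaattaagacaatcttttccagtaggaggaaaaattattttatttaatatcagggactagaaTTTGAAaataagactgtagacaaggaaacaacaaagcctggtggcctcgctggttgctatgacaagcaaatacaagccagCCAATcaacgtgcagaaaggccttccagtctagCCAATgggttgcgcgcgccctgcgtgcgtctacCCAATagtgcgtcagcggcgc
Ube2c: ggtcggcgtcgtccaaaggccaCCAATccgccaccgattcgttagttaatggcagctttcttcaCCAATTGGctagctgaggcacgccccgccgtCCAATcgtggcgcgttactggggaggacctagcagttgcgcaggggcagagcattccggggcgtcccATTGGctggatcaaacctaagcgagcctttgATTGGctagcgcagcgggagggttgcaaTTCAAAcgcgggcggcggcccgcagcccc
Mcm6: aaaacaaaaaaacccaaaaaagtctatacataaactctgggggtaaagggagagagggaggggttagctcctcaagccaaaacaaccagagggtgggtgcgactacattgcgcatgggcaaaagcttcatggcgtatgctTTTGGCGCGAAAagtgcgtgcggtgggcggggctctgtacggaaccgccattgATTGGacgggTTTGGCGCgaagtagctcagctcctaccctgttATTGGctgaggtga
Cdk2: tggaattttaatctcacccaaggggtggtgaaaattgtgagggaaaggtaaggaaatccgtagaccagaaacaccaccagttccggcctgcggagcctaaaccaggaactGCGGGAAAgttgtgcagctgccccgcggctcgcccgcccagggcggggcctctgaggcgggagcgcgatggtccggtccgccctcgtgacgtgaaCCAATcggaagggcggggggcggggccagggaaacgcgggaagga
The Mki67 stretch holds 2 TTTGAA and 3 CCAAT words, and the Ccnb2 stretch 1 and 3. Ube2c holds 1 TTTGAA, on the other strand, and 6 CCAAT words, of which 2 share letters. Hmmr has 5 CCAAT words here, and its TTTGAA begins at base 9 after the start, outside the stretch printed. Mcm6 holds 3 E2F-type words, of which 2 overlap on opposite strands, and Cdk2 holds 1.

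The G1/S genes responded to exposure in both genotypes. On the TMM scale both CDK inhibitors, Cdk6, Ccnd2, Pcna and Rrm2 were called higher, and Ccnd3, both E cyclins, Cdk2, E2f1 and Cdc6 lower, in each genotype. On the TMM scale 8 of 24 were called higher and 6 lower in wild type mice, and 6 higher and 10 lower in null mice, with medians of -0.00033 and -0.21. These shares of 14 and 16 of 24 stand beside 40.2% and 44.8% of all genes. On log2(TPM + 1) the counts were 6 higher and 15 lower in wild type and 4 higher and 16 lower in null mice. Of all 20501 genes, 2251 were called higher and 8402 lower on that scale in wild type mice, and 2236 and 8414 in null mice. All genes called lower on the TMM scale were also lower and called on the TPM scale, 6 in wild type and 10 in null mice. Of those called higher, 6 of 8 and 4 of 6 were also called higher on the TPM scale. The median of all genes lies lower on the TPM scale, so the kept lower calls are not separate evidence.

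**Figure D4:**
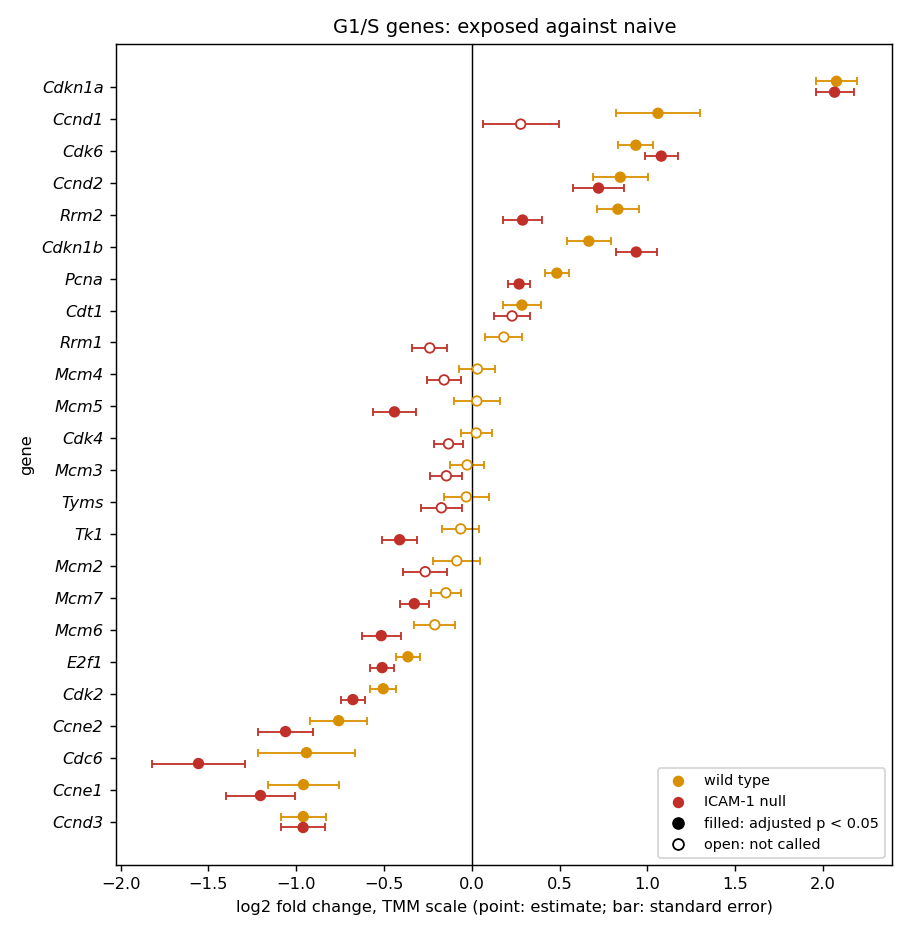
Log2 fold change of each G1/S gene, exposed against naive, on the TMM scale (horizontal axis) in wild type (orange) and ICAM-1 null mice (red), with standard errors as bars and filled points for adjusted p under 0.05. Cdkn1a lies near 2.1 in both genotypes, and Ccnd3, Ccne1, Ccne2, Cdc6, Cdk2 and E2f1 lie below 0 and are filled in both.

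Cdkn1a encodes p21, the cyclin-dependent kinase inhibitor that p53 induces (GRCm39 chromosome 17, 29309950 to 29319701). Cdkn1a levels were 147, 141, 172 and 128 TPM in naive wild type mice and 107, 143, 136, 139 and 160 TPM in naive ICAM-1 null mice, and after exposure 518, 487, 496, 470 and 393 TPM in wild type and 513, 511, 382, 414 and 383 TPM in ICAM-1 null mice. Every exposed library lay above every naive library, and the mean went from 147 ± 18.3 TPM (SD, n = 4) to 473 ± 47.8 TPM (SD, n = 5) in wild type mice. Its fold change was 2.08 ± 0.12 (adjusted p = 7.14e-12) in wild type and 2.07 ± 0.11 (adjusted p = 1.38e-12) in null mice, the smallest adjusted p of the 24 genes in both. Cdkn1b encodes p27, the inhibitor that holds cyclin E with CDK2 (chromosome 6, 134897364 to 134902476). For Cdkn1b the wild type naive libraries gave 62.6, 60.6, 69.0 and 60.1 TPM and the wild type exposed libraries 89.7, 70.6, 72.8, 79.2 and 85.2 TPM, while the ICAM-1 null libraries gave 71.4, 59.8, 63.0, 70.3 and 70.7 TPM naive and 121, 116, 87.9, 76.6 and 120 TPM exposed. Exposed libraries were all above naive libraries within each genotype, with fold changes of 0.67 ± 0.12 (adjusted p = 0.000182) and 0.94 ± 0.12 (adjusted p = 1.01e-06).

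Cdk6, a kinase partner of the D cyclins (chromosome 5, 3391485 to 3581008), was higher as well. Cdk6 was measured at 33.6, 32.8, 33.8 and 41.2 TPM in the wild type naive libraries, 34.2, 31.3, 33.4, 39.8 and 41.2 in the ICAM-1 null naive libraries, 44.4, 45.2, 58.0, 59.2 and 54.7 in the wild type exposed libraries and 60.2, 59.3, 63.4, 57.5 and 58.0 in the ICAM-1 null exposed libraries. The fold changes were 0.93 ± 0.10 (adjusted p = 1.59e-07) in wild type and 1.08 ± 0.09 (adjusted p = 4.68e-09) in null mice, again with no overlap between exposed and naive libraries. Ccnd2 (cyclin D2) was the most abundant gene of the cyclin and kinase group. Ccnd2 levels were 107, 118, 125 and 137 TPM in naive wild type mice and 132, 146, 141, 162 and 127 TPM in naive ICAM-1 null mice, and after exposure 128, 131, 201, 174 and 204 TPM in wild type and 152, 147, 200, 180 and 234 TPM in ICAM-1 null mice. It was called higher in both genotypes, at 0.85 ± 0.16 (adjusted p = 0.000152) and 0.72 ± 0.14 (adjusted p = 0.000308), although its libraries overlapped. Ccnd1 (cyclin D1) was low throughout. For Ccnd1 the wild type naive libraries gave 2.27, 0.910, 1.13 and 1.82 TPM and the wild type exposed libraries 2.10, 2.03, 2.25, 2.45 and 3.20 TPM, while the ICAM-1 null libraries gave 2.12, 2.79, 2.13, 2.87 and 2.97 TPM naive and 2.57, 2.20, 2.20, 3.14 and 2.09 TPM exposed. It was called higher in wild type mice at 1.06 ± 0.24 (adjusted p = 0.00108), and was at 0.28 ± 0.22 (adjusted p = 0.317) in null mice.

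Ccnd3, the cyclin D3 gene (chromosome 17, 47815976 to 47910616), went the other way from Ccnd2. Ccnd3 was measured at 140, 138, 179 and 154 TPM in the wild type naive libraries, 107, 96.6, 128, 137 and 136 in the ICAM-1 null naive libraries, 57.01, 84.2, 62.8, 58.4 and 60.4 in the wild type exposed libraries and 48.2, 57.9, 58.5, 61.2 and 37.7 in the ICAM-1 null exposed libraries. Its exposed libraries were all below its naive ones, and its fold changes were -0.96 ± 0.13 (adjusted p = 3.84e-06) and -0.96 ± 0.12 (adjusted p = 1.5e-06). Cdk2, the partner of the E cyclins (chromosome 10, 128533808 to 128540900), was lower too. Cdk2 levels were 45.5, 46.9, 46.2 and 55.5 TPM in naive wild type mice and 55.1, 52.7, 51.7, 53.3 and 51.3 TPM in naive ICAM-1 null mice, and after exposure 23.7, 30.3, 30.3, 25.7 and 23.9 TPM in wild type and 23.7, 24.2, 27.1, 25.7 and 23.5 TPM in ICAM-1 null mice. It fell in both genotypes, at -0.50 ± 0.07 (adjusted p = 1.1e-05) and -0.68 ± 0.07 (adjusted p = 7.18e-08), without overlap. The E cyclins themselves were at -0.96 and -1.20 (Ccne1) and at -0.76 and -1.06 (Ccne2) in wild type and null mice, with all 4 values called. Ccne1 averaged 9.05 TPM in naive and 3.48 TPM in exposed wild type mice, and Ccne2 10.2 and 4.62 TPM. Cdk4, the other D cyclin kinase, was not called in any comparison on the TMM scale.

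E2f1 encodes the transcription factor that turns on S phase genes (chromosome 2, 154401327 to 154411812). For E2f1 the wild type naive libraries gave 65.4, 64.3, 68.1 and 70.8 TPM and the wild type exposed libraries 39.4, 41.0, 43.8, 37.3 and 39.7 TPM, while the ICAM-1 null libraries gave 56.1, 58.3, 54.0, 59.2 and 52.0 TPM naive and 33.6, 27.6, 32.2, 32.2 and 28.1 TPM exposed. The 4 groups were separate from one another, with the null group lower than the wild type group in either state. It fell on exposure, with fold changes of -0.36 ± 0.07 (adjusted p = 0.000267) and -0.51 ± 0.07 (adjusted p = 1.93e-06). Cdc6, which loads the replicative helicase onto origins, was at -0.94 ± 0.28 (adjusted p = 0.00959) in wild type and -1.56 ± 0.27 (adjusted p = 5.77e-05) in null mice, from a naive level of 3.32 ± 0.641 TPM (SD, n = 4) and 3.92 ± 0.874 TPM (SD, n = 5).

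**Figure D5:**
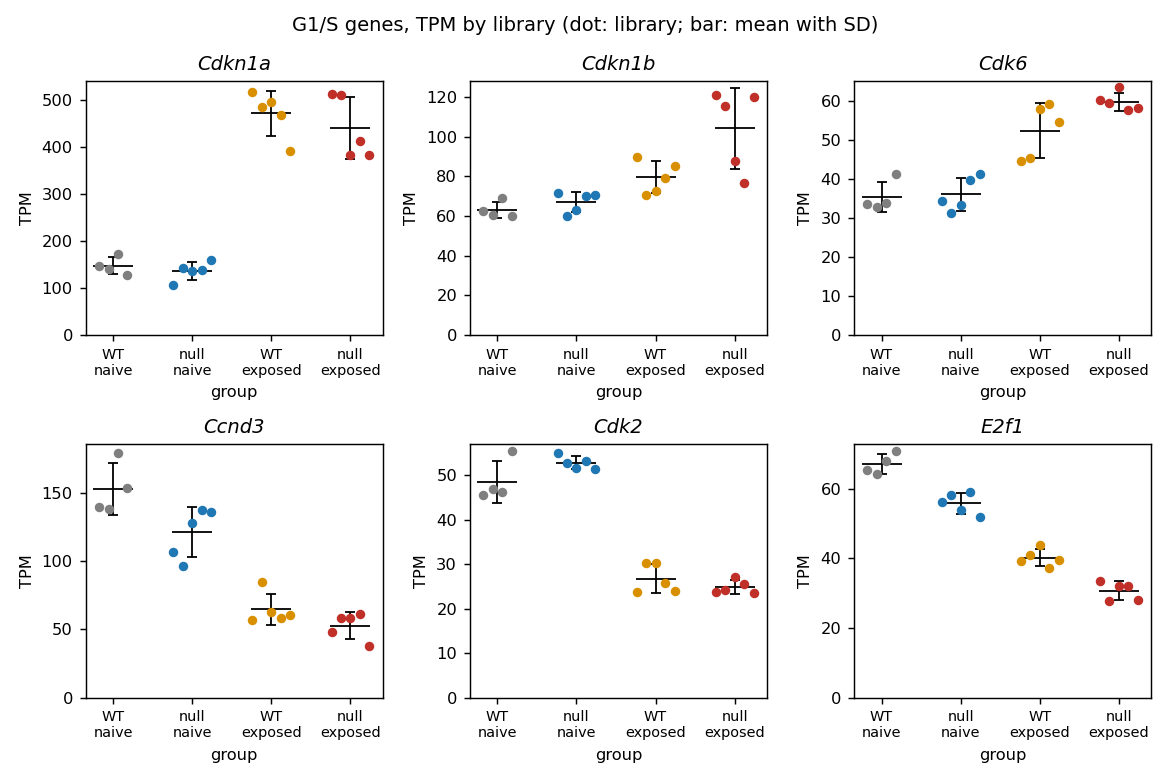
TPM (vertical axis, from 0) of 6 G1/S genes in each of the 19 libraries by group, with 1 dot per library and bars for the mean and SD. Cdkn1a, Cdkn1b and Cdk6 are higher and Ccnd3, Cdk2 and E2f1 lower in every exposed library than in every naive library of the same genotype.

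The replicative helicase genes Mcm2 to Mcm7 were close to level on the TMM scale in wild type mice, from -0.21 (Mcm6) to 0.03 (Mcm4), with none called. In null mice Mcm5, Mcm6 and Mcm7 were called lower, at -0.44, -0.52 and -0.33. On log2(TPM + 1) all 6 were lower and called in both genotypes, from -0.66 to -0.33 in wild type mice. Mcm3 was the most abundant of the E2F1 and licensing group over all libraries. Mcm3 was measured at 55.1, 65.5, 56.1 and 64.2 TPM in the wild type naive libraries, 72.0, 66.8, 50.6, 59.6 and 57.1 in the ICAM-1 null naive libraries, 41.6, 41.6, 51.8, 46.1 and 44.0 in the wild type exposed libraries and 46.1, 35.0, 44.4, 45.6 and 44.1 in the ICAM-1 null exposed libraries. Its TMM fold changes were -0.03 ± 0.10 (adjusted p = 0.863) and -0.14 ± 0.09 (adjusted p = 0.214). Cdt1, the licensing factor that works with Cdc6, was called higher in wild type mice on the TMM scale at 0.29 ± 0.11 (adjusted p = 0.0417), but was at -0.10 on the TPM scale.

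Among the genes of DNA synthesis, Pcna, the sliding clamp of the replication fork, was the most abundant of the 46 genes over all libraries. Pcna levels were 303, 319, 326 and 332 TPM in naive wild type mice and 390, 361, 333, 315 and 342 TPM in naive ICAM-1 null mice, and after exposure 369, 351, 360, 357 and 285 TPM in wild type and 343, 310, 329, 321 and 335 TPM in ICAM-1 null mice. The levels of the 4 groups overlapped. Its TMM fold changes of 0.48 ± 0.07 (adjusted p = 7.25e-06) and 0.27 ± 0.06 (adjusted p = 0.00159) became 0.10 and -0.08 on log2(TPM + 1), where neither was called and the sign in null mice turned. Rrm2, the regulated subunit of ribonucleotide reductase, was at 0.83 ± 0.12 (adjusted p = 7.49e-06) in wild type and 0.29 ± 0.11 (adjusted p = 0.0359) in null mice on the TMM scale, and at 0.44 and -0.07 on the TPM scale, where the sign in null mice turned. For Rrm2 the wild type naive libraries gave 33.9, 33.2, 43.6 and 46.6 TPM and the wild type exposed libraries 50.4, 51.9, 60.7, 59.3 and 45.5 TPM, while the ICAM-1 null libraries gave 57.9, 47.3, 41.7, 40.3 and 43.1 TPM naive and 47.5, 40.4, 41.6, 49.4 and 39.2 TPM exposed. The wild type exposed libraries overlapped the naive ones by 1 library, the one at 45.5 TPM. Tk1, the salvage thymidine kinase, fell in null mice at -0.41 ± 0.10 (adjusted p = 0.00164) and was at -0.06 ± 0.10 (adjusted p = 0.678) in wild type mice on the TMM scale. It was called lower in both on log2(TPM + 1), at -0.87 in null and -0.56 in wild type mice, where every exposed wild type library lay below every naive one. Rrm1 and Tyms, the other reductase subunit and thymidylate synthase, were not called in either genotype on the TMM scale.

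Genotype differences among the G1/S genes were few. In naive mice 3 of 24 were called higher in ICAM-1 null cells and none lower, beside 6.86% of all genes, with 20 positive fold changes and a median of 0.18. Tk1 was at 0.39 ± 0.10 (adjusted p = 0.0247), Mcm7 at 0.32 ± 0.09 (adjusted p = 0.0251) and Ccnd1 at 0.82 ± 0.24 (adjusted p = 0.0346). Tk1 was measured at 74.3, 60.8, 77.2 and 70.9 TPM in the wild type naive libraries, 105, 88.8, 82.4, 80.8 and 73.8 in the ICAM-1 null naive libraries, 45.6, 54.2, 44.1, 53.4 and 41.9 in the wild type exposed libraries and 45.5, 46.8, 52.6, 46.9 and 40.5 in the ICAM-1 null exposed libraries. Mcm7 levels were 55.0, 53.1, 55.6 and 57.5 TPM in naive wild type mice and 72.5, 63.5, 63.6, 57.04 and 67.3 TPM in naive ICAM-1 null mice, and after exposure 33.4, 34.6, 41.2, 35.8 and 29.5 TPM in wild type and 36.3, 31.0, 40.0, 39.7 and 38.0 TPM in ICAM-1 null mice. In all 3 genes the naive groups overlapped. None of the 3 was called on log2(TPM + 1), where 1 G1/S gene was called lower and none higher. The count fell to 0 without wild type naive library 2 and without ICAM-1 null naive library 2. Calls over all genes went from 883 higher and 523 lower to 726 and 410, and to 766 and 454.

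In exposed mice 1 of the 24 was called higher in null cells and 2 lower, beside 8.48% of all genes. Cdkn1b was higher at 0.47 ± 0.12 (adjusted p = 0.012), although 2 null libraries, at 87.9 and 76.6 TPM, lay within the wild type range of 70.6 to 89.7 TPM. Mcm6 was lower at -0.56 ± 0.11 (adjusted p = 0.00184). For Mcm6 the wild type naive libraries gave 40.4, 43.1, 38.9 and 49.5 TPM and the wild type exposed libraries 33.3, 26.9, 31.4, 28.5 and 26.3 TPM, while the ICAM-1 null libraries gave 45.9, 36.7, 29.3, 32.6 and 32.8 TPM naive and 26.9, 21.2, 23.8, 19.5 and 21.9 TPM exposed. The highest exposed null library, at 26.9 TPM, lay within the range of the wild type libraries. E2f1 was lower at -0.35 ± 0.07 (adjusted p = 0.0013), with all exposed null libraries (27.6 to 33.6 TPM) under all exposed wild type libraries (37.3 to 43.8 TPM). In naive mice the same 3 genes were at 0.20 ± 0.12 (adjusted p = 0.456), -0.26 ± 0.12 (adjusted p = 0.249) and -0.21 ± 0.07 (adjusted p = 0.0933). The 3 calls were made on log2(TPM + 1) too. Cdkn1b was not called when edgeR was fitted on the exposed groups alone (adjusted p = 0.0607), nor Mcm6 by limma on median-centred log2(TPM + 1) (adjusted p = 0.0839), an alternative chosen after seeing the data. No G1/S gene was called in the difference of responses by edgeR or by DESeq2. An unadjusted p under 0.05 was found for 6 of the 24, against 9.85% of all genes. The smallest adjusted p by edgeR was 0.193, for Rrm2 at -0.54. Of the 24 differences, 22 were negative and 2 positive, with a median of -0.18 against -0.03 for all genes.

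Other genes of the pathway were counted in the same way, from lists chosen with earlier results known. In naive mice the counts stand beside 4.31% of all genes called higher and 2.55% lower. Of 45 further mitosis genes, 11 were called higher and 1 lower in naive null against wild type mice, with 42 positive and a median of 0.33, while 2 of 40 genes of origin firing and the replication fork were called higher, near the share of all genes. The 3 mitosis genes with the smallest adjusted p were Pbk, a mitotic kinase, at 0.98 ± 0.18 (adjusted p = 0.000871), Kif22, a chromosome-arm kinesin, at 0.62 ± 0.12 (adjusted p = 0.00238), and Ncapg, a condensin subunit, at 0.58 ± 0.13 (adjusted p = 0.00462). Of 18 regulators of the RB, E2F and DREAM system, 1 was called higher, 1 lower and 16 not called, with a median of 0.10. Foxm1, the transcription factor of G2/M genes, was the higher one at 0.60 ± 0.14 (adjusted p = 0.00855), and E2f2 the lower one at -0.60 ± 0.16 (adjusted p = 0.019). In exposed mice 2 of the 45 mitosis genes were called higher and 2 lower, close to the 8.48% of all genes called.

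These exposure counts are on the TMM scale and stand beside 20.1% of all genes called higher and 20.2% lower in wild type mice, and 21.4% and 23.4% in null mice. Of 40 origin firing and fork genes, 14 were called lower and 2 higher in wild type, and 23 lower and none higher in null mice. Pold1, the catalytic subunit of DNA polymerase delta, was at -0.83 ± 0.10 (adjusted p = 1.5e-06) in wild type mice and -0.76 ± 0.10 (adjusted p = 1.73e-06) in null mice. Their summed level went from 961 to 638 TPM in wild type and from 999 to 603 TPM in null mice. The mitosis list gave 12 higher and 7 lower in wild type and 2 higher and 21 lower in null mice on the TMM scale, but its summed level was lower after exposure in both, 1057 against 913 TPM and 1119 against 835 TPM. Its largest rise was in Ckap2l, a spindle protein, at 2.54 ± 0.27 (adjusted p = 1.34e-07) and 3.01 ± 0.25 (adjusted p = 2.21e-09). Of 18 regulators of the RB, E2F and DREAM system, 6 were called higher and 4 lower in wild type and 4 higher and 11 lower in null mice, and of 15 other CDK inhibitors, CDC25 and WEE1 kinases 2 and 4, and 4 and 6. E2f2, an activating E2F, fell in both genotypes, at -1.57 ± 0.16 (adjusted p = 6.98e-08) and -1.58 ± 0.15 (adjusted p = 2.57e-08). Cdc25b, a phosphatase that releases CDK1, fell at -1.09 ± 0.12 (adjusted p = 3.15e-07) and -1.26 ± 0.12 (adjusted p = 1.37e-08), and Cks2, a small CDK-binding subunit, rose at 1.27 ± 0.11 (adjusted p = 4.96e-09) and 1.28 ± 0.10 (adjusted p = 8.54e-10). Of 18 p53 targets, 10 were called higher and 6 lower in each genotype. Gadd45a, a stress sensor that can restrain CDK1, had the smallest adjusted p, at 4.80 ± 0.16 (adjusted p = 1.23e-15) and 3.997 ± 0.13 (adjusted p = 1.04e-15).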

How the data were processed

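The authors aligned and counted the reads with STAR and StringTie version 2 on GRCm39, per the submitters' processing notes. The annotation release and the counting options are not stated. Of the deposited tables, one holds estimated counts per gene, all whole numbers, and the authors' other table holds TPM. Libraries were poly(A)-selected and planned at 20 M read pairs of 150 bases, per the labels' protocols. Differential expression used edgeR 4.0.16 (quasi-likelihood F test, two-sided, TMM, filterByExpr with a minimum count of 10 and a minimum total of 15) on all 19 libraries, with 4 groups and no block, in R 4.3.3, and was tested on simulated data. Adjusted p-values are Benjamini-Hochberg over 20501 genes. Alternatives were DESeq2 1.42.0, RLE scaling, no filter, limma 3.58.1 on log2(TPM + 1) and log2(TPM + 0.1), only the 2 groups compared, a replicate block and leaving out each library. After the data were seen, fits with 1 wild type naive library and on median-centred log2(TPM + 1) were added. No 2 libraries were identical. The labels do not say that each library is 1 mouse, so p-values measure the spread between these samples. The members and lists were chosen with earlier results of these data known. Values in every library are given for genes called and among the 6 smallest adjusted p of their list in a comparison, and for the most abundant gene of each role. Genes of other lists are named from the 3 smallest adjusted p. Of 16 listed symbols of other CDK regulators, 1 matched no row. Promoter windows come from RefSeq on GRCm38.p6 and are used with no coordinates of the deposited tables.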

Additional observations from a re-analysis of the deposited data

Results flagged for a closer look

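In 13 of 124 groups of library values examined, 1 library stood far from the others of its group by Dixon's test, where chance gives about 1 in 20. Among G1/S genes these were the highest wild type exposed library for Ccnd3 (84.2 TPM), the highest wild type naive library for Cdk2 (55.5 TPM) and for Cdk6 (41.2 TPM), the lowest ICAM-1 null exposed library for Mcm3 (35.0 TPM) and the lowest wild type exposed library for Pcna (285 TPM). The summed level of the G1/S genes was far highest in 1 ICAM-1 null exposed library (1677 TPM). Among G2/M genes they were the lowest wild type exposed library for Mki67 (27.9 TPM), the highest ICAM-1 null naive library for Top2a (79.3 TPM) and for Birc5 (52.5 TPM), the highest wild type naive library for Cdk1 (14.0 TPM) and for Cenpf (3.43 TPM), the lowest ICAM-1 null exposed library for Bub1 (4.07 TPM) and the highest for Hmmr (4.69 TPM).

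Of the 45 further mitosis genes, 2 responded to exposure differently in the genotypes by the interaction test of edgeR, where 0.332% of all genes were called: Ncapg, a condensin subunit, at -0.82 ± 0.17 (adjusted p = 0.0405) and Pbk, a mitotic kinase, at -1.11 ± 0.24 (adjusted p = 0.0459). Ncapg averaged 6.23 TPM in wild type naive, 8.34 in ICAM-1 null naive, 7.49 in wild type exposed and 6.25 in ICAM-1 null exposed libraries, and Pbk 6.50, 12.3, 9.80 and 8.65 TPM.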

How the results depend on the processing

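The limits are the scale, single naive libraries and 4 to 5 libraries a group. On log2(TPM + 1) and on log2(TPM + 0.1) alike, limma called 21 G1/S members (6 higher, 15 lower) and 6 G2/M members (1 higher, 5 lower) in the wild type exposure comparison, against 14 and 9 by edgeR, 18 G2/M members in the null exposure comparison against 9, and 1 G1/S member (lower) and 8 G2/M members in naive null against wild type mice, against 3 and 15. The 2 scales differ by a shift of all genes on exposure, and its size depends on the constant added to TPM. The median of all genes was -0.22 in wild type and -0.19 in null mice with 1 added. With 0.1 added it was -0.33 and -0.31. Between the TMM scale and log2(TPM + 1), the G2/M median went from 0.37 to -0.01 in wild type mice. In null mice it went from -0.21 to -0.50. DESeq2 called 5 G1/S members in the naive genotype comparison, against 3 by edgeR, where it called 1165 higher and 691 lower of 21442 genes. In the difference of responses it called 5 G2/M members, against 0 by edgeR, where it called 108 higher and 158 lower of 18890 genes. Against wild type naive library 4 alone, chosen after seeing the data, 10 G1/S members (4 higher, 6 lower) and 2 G2/M members were called on exposure, and 0 and 0 in the naive genotype comparison; that lone library is assumed to vary like the other groups, and calls over all genes fell from 883 to 195 higher and from 523 to 126 lower. With log2(TPM + 1) centred on each library's median, also chosen after seeing the data, limma called 13 G2/M members (all higher) and 15 G1/S members (8 higher, 7 lower) in the wild type exposure comparison, 7 G2/M members (1 higher, 6 lower) in the null one, and 12 G2/M (all higher) and 1 G1/S member (lower) in the naive genotype comparison; under it the median of all genes was 0.17 in wild type and 0.21 in null mice on exposure. A fit without ICAM-1 null naive libraries 1 and 2 was also tried and is not reported, because those libraries had been picked for their high G2/M levels; it called fewer G2/M members in the naive genotype comparison. Leaving out 1 library gave 0 to 4 G1/S members and 8 to 16 G2/M members in that comparison, and 6 to 11 G2/M members in the wild type exposure comparison. The cause of these changes was not tested, beyond the smaller number of samples. RLE scaling, no filter and the fits of only 2 groups stayed within 1.5 times these counts.

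The labels do not say that the replicate numbers pair the mice. Libraries of different groups with the same number had correlations of deviations of -0.048 to 0.073 over 27 pairs. Those with different numbers had -0.093 to 0.113 over 108 pairs. Correlations near 0 cannot exclude a pairing. With a replicate block the naive genotype comparison gave 16 G2/M and 3 G1/S members, the wild type exposure comparison 11 and 13, the null exposure comparison 9 and 16, the exposed genotype comparison 0 and 4, and the difference of responses 0 and 0.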
